A study of Mus musculus with 6 samples.

Results

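Primary chondrocytes cultured with interleukin-1β (IL-1β) gave 382 windows of Runx2 occupancy that were distal and that were not in the list from normal culture, of 1000 windows in the IL-1β list and 2000 in both lists. They were chosen by their absence from the other list, which is itself a readout. A window was taken when it overlapped no normal-culture window by 1 bp or more and when its centre was over 500 bp from every transcript start in either deposited list. Of the 1000 IL-1β windows, 449 (44.9%) overlapped no normal-culture window, 67 of these 449 lay within 500 bp of a start, and the other 382 were the windows described here. Of the 382, 8 lay in repeated sequence at the start of chromosome 9 and are given apart, so that 374 windows enter every share. Each list ends at 1000 windows, so that a window missing from the normal-culture list is not shown to be unbound there.

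The cells came from 5-day-old Runx2-Biotin-3xFLAG-knockin mice of strain C57BL/6 by the labels (C57BL/6J in the methods), in which the Runx2 protein itself carries the tag and an anti-FLAG antibody recovers the DNA it sits on. The labels give 6 libraries: anti-FLAG, IgG and input DNA from IL-1β culture, and the same 3 from normal culture. The IL-1β dose is given per µL in the labels and with the same number per mL in the methods. The dose behind the IL-1β list is thus uncertain, though no value here was computed from it. The peaks of each condition rest on 1 anti-FLAG library over 1 input library, so no value below has a replicate error, and intervals over windows cover counting error only. The lists hold a running number, positions and transcripts but no score, read count or expression. The running number is read here as the rank of the peak, best first, which the lists do not state, and every statement on ranks rests on that reading. Without counts and expression the depth behind a window is unknown and the cell type could not be checked against its markers.

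Runx2 is a transcription factor of the Runt family that binds DNA together with its partner Cbfb, through a short core read here as TGTGGT or TGCGGT on either strand. In cartilage it drives chondrocyte hypertrophy, in bone it is required for osteoblast formation, and it binds distal elements as well as promoters. IL-1β is a cytokine of inflamed joints that acts through NF-κB and through AP-1, the factor made of Fos and Jun proteins, and Runx proteins are known to work beside AP-1 at several enhancers.

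The sequences of 9 members with a Runx core are printed because they lie near genes of cartilage matrix, collagen, signalling, chondrocyte regulation or focal adhesion on the lists of genes used, with the exception of Eif3h, which is printed for its adjoining AP-1 site. Each is 100 bases of the mm9 plus strand, read from the list start + 1 to the list end since the lists do not state whether they count from 0 or 1, with the core in capitals (TGTGGT or TGCGGT, which read ACCACA or ACCGCA where the core is on the minus strand), and in the Eif3h window the AP-1 motif TGACTCA is in capitals as well. The windows lie at chr11:8609709-8609808 (Tns3), chr10:82538463-82538562 (Chst11), chr7:124558361-124558460 (Xylt1), chr4:82011139-82011238 (Nfib), chr7:122837045-122837144 (Sox6), chr15:51562487-51562586 (Eif3h), chr10:87255213-87255312 (Igf1), chr1:45370881-45370980 (Col3a1) and chr14:70056839-70056938 (Loxl2).
Tns3, rank 162: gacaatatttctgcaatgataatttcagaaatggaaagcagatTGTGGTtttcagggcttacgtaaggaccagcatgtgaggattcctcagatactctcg
Chst11, rank 290: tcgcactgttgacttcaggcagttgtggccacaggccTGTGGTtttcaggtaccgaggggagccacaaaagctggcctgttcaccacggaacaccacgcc
Xylt1, rank 302: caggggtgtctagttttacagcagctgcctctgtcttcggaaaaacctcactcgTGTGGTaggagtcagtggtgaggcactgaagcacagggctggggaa
Nfib, rank 350: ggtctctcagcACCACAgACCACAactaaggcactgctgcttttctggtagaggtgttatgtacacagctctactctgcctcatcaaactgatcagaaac
Sox6, rank 379: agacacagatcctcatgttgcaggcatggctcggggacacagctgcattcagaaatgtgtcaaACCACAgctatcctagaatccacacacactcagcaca
Eif3h, rank 404: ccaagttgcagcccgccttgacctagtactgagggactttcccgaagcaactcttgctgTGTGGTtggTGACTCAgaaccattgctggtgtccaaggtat
Igf1, rank 558: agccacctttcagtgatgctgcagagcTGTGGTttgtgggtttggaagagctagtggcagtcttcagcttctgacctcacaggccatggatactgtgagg
Col3a1, rank 594: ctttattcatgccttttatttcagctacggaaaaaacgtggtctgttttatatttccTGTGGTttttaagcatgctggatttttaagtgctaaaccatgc
Loxl2, rank 808: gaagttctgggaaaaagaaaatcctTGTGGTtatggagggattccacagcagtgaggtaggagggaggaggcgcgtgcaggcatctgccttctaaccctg
Of the 9 windows, 8 hold a single core, while the Nfib window holds a direct repeat with 7 bp from core to core.

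The next 3 sequences are neighbouring pairs, printed to show a second kind of member, one that lies just beside a normal-culture window without touching it. Each sequence runs over both windows. In the Stk4 pair (chr2:163976005-163976209) and the Ddr2 pair (chr1:171936581-171936828) the first 100 bases are the IL-1β window and the last 100 the normal-culture window, and in the Bmp6 pair (chr13:38412279-38412494) the order is the opposite. Runx cores are in capitals.
Stk4, rank 41 in IL-1β and 116 in normal culture: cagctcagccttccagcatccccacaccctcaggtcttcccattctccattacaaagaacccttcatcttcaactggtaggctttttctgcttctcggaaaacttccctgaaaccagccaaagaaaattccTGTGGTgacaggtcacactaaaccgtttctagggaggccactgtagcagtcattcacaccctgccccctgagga
Bmp6, rank 470 in IL-1β and 942 in normal culture: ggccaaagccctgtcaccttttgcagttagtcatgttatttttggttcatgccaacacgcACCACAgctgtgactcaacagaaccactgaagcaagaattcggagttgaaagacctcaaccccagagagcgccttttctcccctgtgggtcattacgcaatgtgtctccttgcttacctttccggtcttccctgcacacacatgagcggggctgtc
Ddr2, rank 890 in IL-1β and 526 in normal culture: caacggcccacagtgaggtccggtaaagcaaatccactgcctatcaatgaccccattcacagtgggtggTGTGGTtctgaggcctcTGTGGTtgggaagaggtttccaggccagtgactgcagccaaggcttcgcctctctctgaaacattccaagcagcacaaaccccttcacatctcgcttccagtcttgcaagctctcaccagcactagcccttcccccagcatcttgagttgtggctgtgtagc
In the Stk4 and Bmp6 pairs the only core lies in the normal-culture window, and in the Ddr2 pair both cores lie in the IL-1β window.

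The windows stood low in the IL-1β list. Their ranks ran from 29 to 1000 with a median of 689, against a median of 327.5 for the 442 distal IL-1β windows that overlapped a normal-culture window (shared distal windows) and 674 for the 355 distal windows found in the normal-culture list alone, each ranked in its own list. Ranks 1 to 100 held 4 of the 374 members and ranks 901 to 1000 held 61, while for shared distal windows the same counts were 69 and 19. Absence from the other list is part of the rule, and the rank order moves with it, so the ranks are given as a description.

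**Figure D1:**
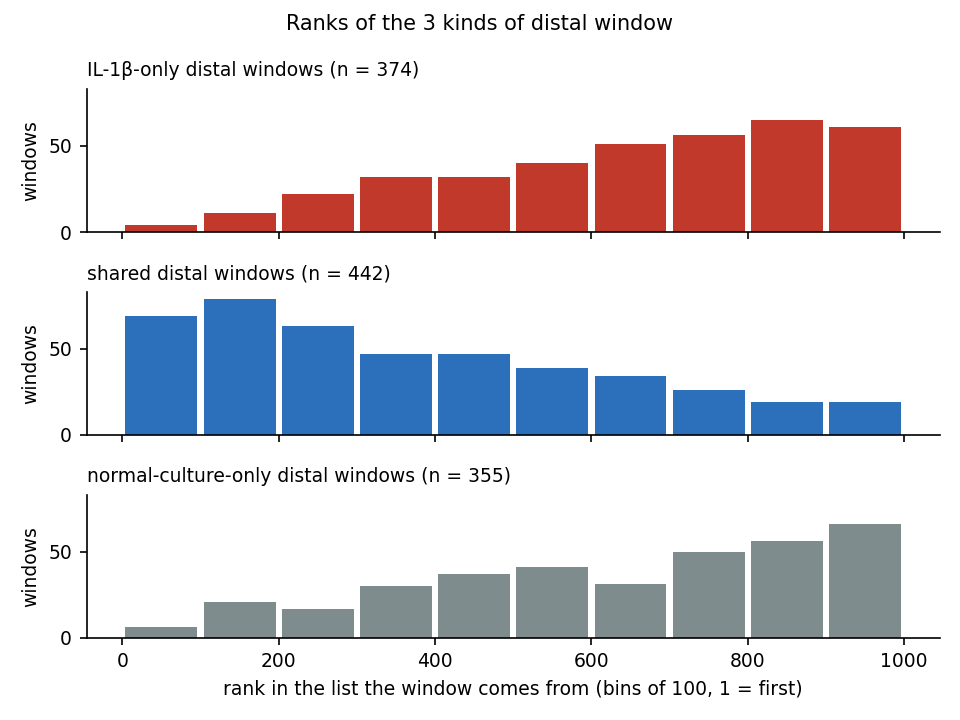
Number of windows in bins of 100 ranks (horizontal axis, rank in the window's own list) for the 374 IL-1β-only, the 442 shared and the 355 normal-culture-only distal windows, 1 library per condition. The IL-1β-only windows climb to 65 in ranks 801 to 900, as the normal-culture-only windows climb to 66 in ranks 901 to 1000, while the shared windows are most numerous, at 79, in ranks 101 to 200.

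At the edges of the rule, the members closest to a deposited start lay 529 bp (Sfr1, rank 120), 543 bp (Egr2, rank 670) and 553 bp (Lancl2, rank 545) away, and the windows left out just within 500 bp lay 383 bp (Skil), 377 bp (Usp48) and 374 bp (Sf3a2) from one. The members closest to a normal-culture window had centres 104 bp (Polr1a, rank 601), 105 bp (Stk4) and 105 bp (Mrps18a, rank 237) from its centre. The shared distal windows with the least overlap had centres 98 bp (Cdh11), 94 bp (Creb5) and 93 bp (Camk2g) apart. The last ranks belonged to members near Gm20388 (1000), Wdr93 (999) and Arhgef3 (998).

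The 10 best-ranked members lay near genes of mixed function, and 6 of the 10 windows held no Runx core. Rank 29 lay 240 bp upstream of the start of Neat1, the long noncoding RNA that builds paraspeckles, and is thus distal only by the deposited transcripts. Its nearest protein-coding gene was Frmd8. Rank 41 lay in intron 10 of Stk4, a kinase of the Hippo pathway. Rank 60, 2279 kb from the start of Immp2l, had 52 distinct words of 6 bp out of 95 possible and is thus of low complexity. Rank 66, in intron 6 of the syntaxin gene Stx8, held 1 Runx core and the NF-κB motif at 3 separate places, each of them with matches on 1 or both strands. Rank 105, near the peroxisome gene Pex2 (Pxmp3), was multi-copy sequence, its 32 bp words having a median of 7 genome copies. Rank 120 lay beside Sfr1, whose protein serves recombination repair. Rank 122 lay 206 bp upstream of Myl6, a myosin light chain gene next to Myl6b. Rank 136 lay in intron 1 of Clip1, a microtubule plus-end gene, with 1 TGCGGT core. Ranks 138 and 146 lay near the glycosylphosphatidylinositol anchor gene Pigt and the homeobox gene Pbx3.

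More of these windows held a Runx core than their surroundings did. A core was found in 217 of the 374 windows (58.0%, 95% Wilson interval 53.0 to 62.9%). Flanks of the same width at 1000 bp to each side held one in 79 of 748 (10.6%, 8.56 to 13.0%), and 7.55% of 2555761 windows of 100 bp spaced every 1000 bp over mm9 held one. The windows had a median GC content of 51.0% and their flanks 46.0%, and the part of base composition in these shares was not tested. The 217 windows held 258 cores, 213 of them TGTGGT (82.6%, 77.5 to 86.7%) and 45 TGCGGT. Of the 258 cores, 157 (60.9%, 54.8 to 66.6%) lay within 25 bp of the window centre. The base after the core was T in 56.8% of 257 cores that had one in the window, and the base before it was C in 45.1%.

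**Figure D2:**
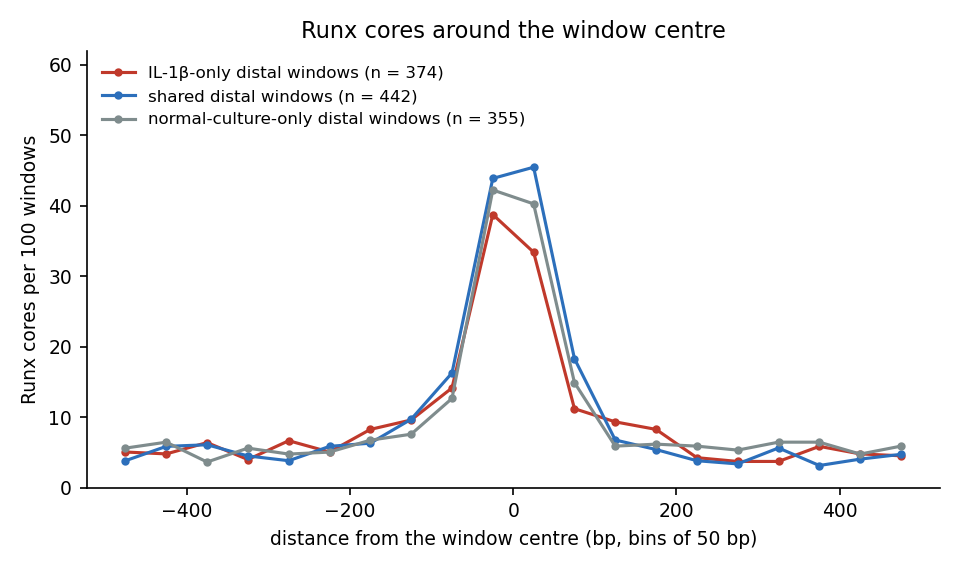
Runx cores per 100 windows (vertical axis) in bins of 50 bp around the window centre (horizontal axis) for IL-1β-only (n = 374), shared (n = 442) and normal-culture-only (n = 355) distal windows. In the bins on either side of the centre the IL-1β-only windows reach 38.8 and 33.4 cores per 100 windows, against 43.9 and 45.5 in shared and 42.3 and 40.3 in normal-culture-only windows.

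The Runx core was less frequent in IL-1β-only windows than in shared ones. The shares were 58.0% in IL-1β-only windows and 67.6% (63.2 to 71.8%) in shared distal windows, a difference of −9.63 percentage points (Newcombe 95% interval −16.2 to −2.98). With the broader consensus that also takes TGTGGC and TGCGGC the shares were 70.1% and 80.1%. At least 2 cores were found in 39 IL-1β-only windows (10.4%) and in 72 shared windows (16.3%), a difference of −5.86 points (−10.5 to −1.15). The difference in the core was −6.00 points (−15.8 to 4.16) when only ranks past 500 were taken in both groups, so that it did not leave out 0 at like ranks. Against the 355 normal-culture-only windows, of which 62.5% (57.4 to 67.4%) held a core, the difference was −4.51 points (−11.5 to 2.59), and a lower share by up to 11.5 points is within its interval.

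Among the 37 members with exactly 2 cores, 24 pairs ran on the same strand and 13 on opposite strands, with 5 to 79 bp from core to core and a median of 27 bp. Of the 37 pairs, 9 were spaced by 10 bp or less. They included Wdfy2 (rank 196), a pair on opposite strands with 8 bp from core to core, and the repeat at Nfib.

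Within the members, intronic windows held a core more often than intergenic ones. The core was in 113 of 170 intronic windows (66.5%, 59.1 to 73.1%) and in 100 of 193 intergenic ones (51.8%, 44.8 to 58.8%), and these intervals do not overlap. Both counts include the members beside a normal-culture window, described below, and were not repeated without them. In steps of 250 ranks, from the best to the lowest, the share was 57.7% of 26 windows, 68.0% of 75, 61.2% of 121 and 50.7% of 152. The share was 65.3% of 101 windows (55.7 to 73.9%) in ranks 1 to 500 and 55.3% of 273 (49.4 to 61.1%) past rank 500, with intervals that overlap.

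A small set of members lay beside a normal-culture window, and these held a Runx core less often than the other members. Of the 374 members, 34 had a normal-culture centre within 200 bp and 38 within 1000 bp, only 5 more within 10 kb, and 271 none within 100 kb. The median distance was 374 kb. The 38 near members held a Runx core in 11 (28.9%, 17.0 to 44.8%) and the 336 others in 206 (61.3%, 56.0 to 66.4%), a difference of −32.4 points (−45.3 to −15.7). Next to the 38 lay 37 different normal-culture windows, since both Polr1a members had the same neighbour, and 24 of the 37 held one (64.9%, 48.8 to 78.2%). By pair, with that neighbour counted for each Polr1a member, the core was in the IL-1β window alone in 5, in the normal-culture window alone in 19, in both in 6 and in neither in 8. Without the 38, the difference from shared distal windows was −6.34 points (−13.1 to 0.43), and that from normal-culture-only windows over 1000 bp from every IL-1β centre was −1.07 points (−8.46 to 6.35). This split was chosen after seeing the data.

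The near members also lay mostly on one side. In 31 of the 38 pairs (81.6%, 66.6 to 90.8%) the IL-1β window was at the lower coordinate, with a median offset of −128 bp. Among the 442 shared distal windows the IL-1β window was at the lower coordinate in 222 (50.2%, 45.6 to 54.9%), with a median offset of −1 bp. Among the 16 IL-1β-only windows close to a start and within 1000 bp of a normal-culture window it was so in 9. In 14 of the 38 pairs the rank was the better one in the IL-1β list, as at Stk4 (41 in IL-1β and 116 in normal culture) and Bmp6 (470 and 942), and in the other 24 it was better in normal culture, as at Tle1 (556 and 275), Slc20a2 (759 and 482) and Ddr2 (890 and 526). Ranks come from separate lists and are given side by side without a test.

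**Figure D3:**
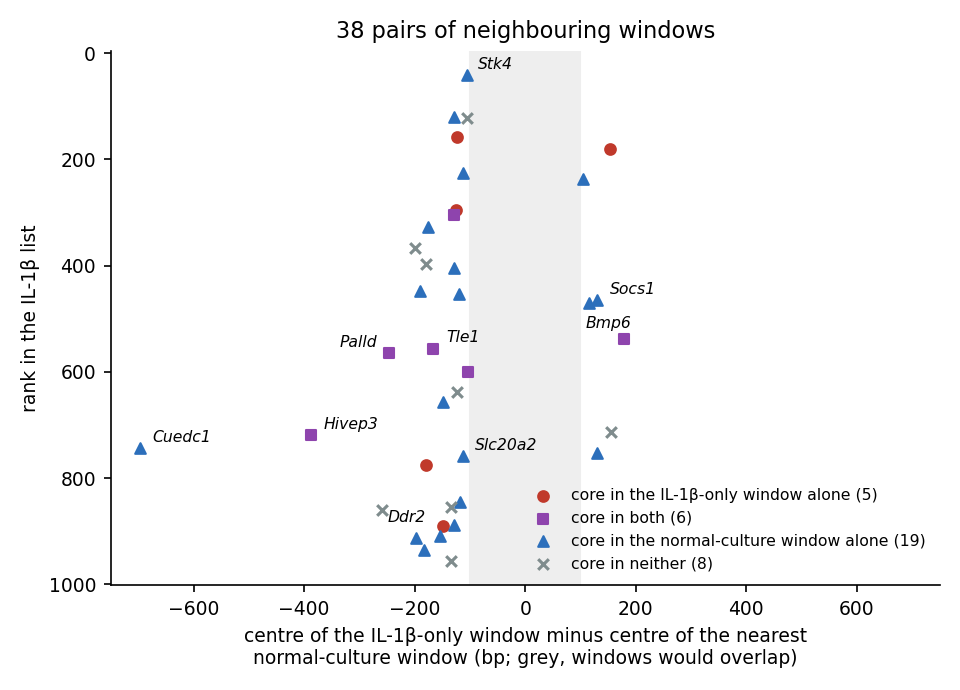
Offset of the IL-1β-only window from the nearest normal-culture window (horizontal axis, bp) and rank in the IL-1β list (vertical axis, best at the top) for the 38 pairs with centres within 1000 bp, marked by which window of the pair holds a Runx core. Of the 38 points, 31 lie left of 0, and pairs with the core in the normal-culture window alone are the most frequent kind (19).

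For the motifs of AP-1 and NF-κB, the factors through which IL-1β acts, the interval of the difference between IL-1β-only and normal-culture-only windows held 0. The AP-1 motif (TGACTCA or TGAGTCA) was in 20 of the 374 windows (5.35%, 3.49 to 8.12%), against 8.60% of shared and 6.48% of normal-culture-only distal windows. It was in 2.01% of the members' flanks and in 1.52% of genome windows. The difference from normal-culture-only windows was −1.13 points (−4.71 to 2.36). Of the 20 windows, 16 also held a Runx core, as at Eif3h (rank 404), at Emcn (rank 769) and at rank 1000. Of all 374 members 58.0% held one. The NF-κB motif was in 34 windows (9.09%, 6.58 to 12.4%), against 6.34% of shared and 8.73% of normal-culture-only windows, in 6.15% of the flanks and in 4.59% of genome windows. Its difference from normal-culture-only windows was 0.36 points (−3.87 to 4.54). Of the 34 windows, 16 also held a Runx core, and neither this overlap nor that with AP-1 was tested. Among these 34, named after their values were seen, were windows nearest to Nfe2l2 (an oxidative stress factor, rank 421) and Zfp36 (which destabilises cytokine mRNAs, rank 675). Of the 374 members, 135 held none of the Runx, AP-1 and NF-κB motifs.

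Besides Runx and AP-1, the TEAD, E-box and ETS motifs were more frequent in the members than in their flanks with intervals that do not overlap. The TEAD motif GGAATG, read by effectors of the Hippo pathway, was in 12.3% of members and 4.28% of flanks, the E-box CAGCTG in 11.5% and 6.15%, and the ETS core (CAGGAA or CCGGAA, then A or G, then C or T) in 7.49% and 3.61%. Genome windows held them in 5.43%, 3.63% and 3.11%. The same motifs were in 13.6%, 8.37% and 4.98% of shared and in 15.5%, 9.58% and 7.61% of normal-culture-only windows, and no interval of these differences left out 0. With intervals that overlap, the C/EBP motif (TTGC, 2 free bases, then AA or CA) was in 12.6% of members and 8.69% of flanks, the SP motif GGGCGG in 5.61% and 2.67%, and the NFY motif CCAAT in 10.2% and 15.4%. Genome windows held these in 8.16%, 0.995% and 15.8%. All motifs were searched on both strands. Members and flanks were compared by their separate intervals alone, and an overlap of these does not show that the shares are alike. Each member gives its own flanks, and this pairing was not used. The SOX motif (ACAAAG or ACAATG) was in 8.56% of members and 13.2% of flanks, with intervals that overlap, in 15.1% of genome windows, and in 4.79% of normal-culture-only windows, a difference of 3.77 points (0.10 to 7.49). Of the 30 motif differences computed (15 motifs against both other kinds of window), 3 left out 0: the Runx core and its broader form against shared windows, and SOX against normal-culture-only windows, which no longer left out 0 when the windows were widened (2.54 points, −3.75 to 8.78).

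**Figure D4:**
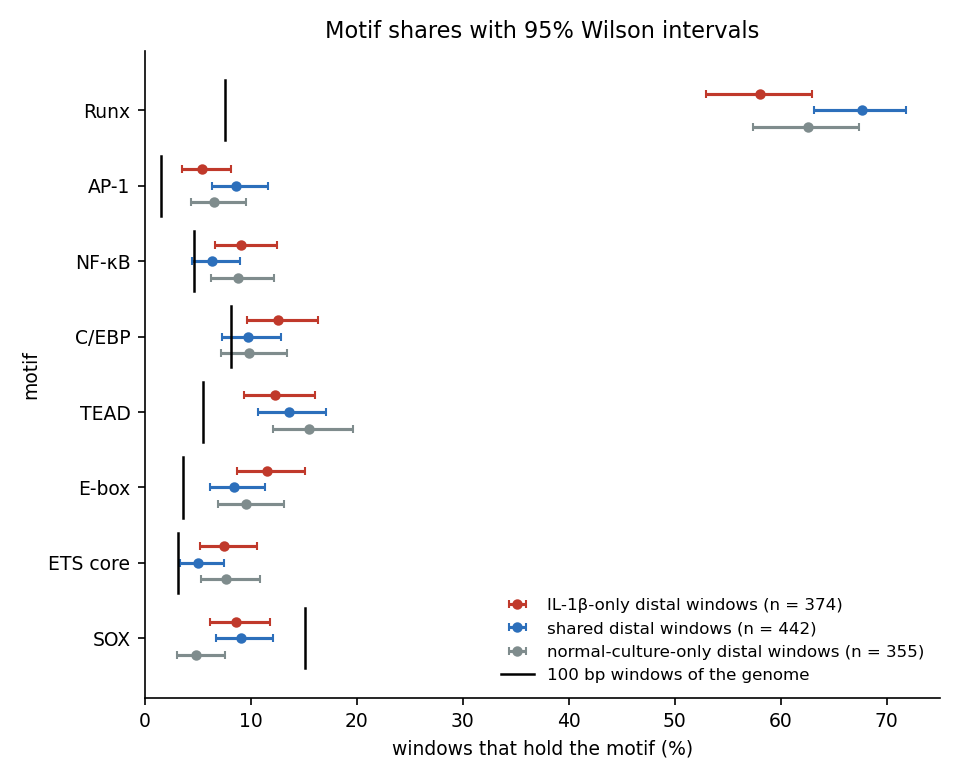
Share of windows that hold each of 8 motifs (horizontal axis, percent; points with 95% Wilson intervals) in IL-1β-only (n = 374), shared (n = 442) and normal-culture-only (n = 355) distal windows, with the share of 100 bp genome windows as a black line. The Runx core stands at 58.0, 67.6 and 62.5%, against 7.55% of the genome, and for AP-1 and NF-κB the intervals of the 3 kinds of window overlap.

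By position, the members were divided between gene bodies and the space between genes. Of the 374 centres, 193 were intergenic, 170 in introns, 6 in coding exons and 5 in exons of untranslated regions of GENCODE M1 protein-coding genes. The median distance was 27.7 kb to the nearest protein-coding start and 44.5 kb to the nearest deposited start. Introns held 45.5% of members and 36.6% of normal-culture-only distal windows, a difference of 8.84 points (1.69 to 15.8), which was 6.60 points (−1.11 to 14.2) without windows within 500 bp of any GENCODE M1 start. Within 500 bp of any GENCODE M1 start lay 29 members (7.75%), against 18.3% of normal-culture-only distal windows, a difference of −10.6 points (−15.5 to −5.71). Of shared distal windows 41.6% lay in introns and 6.56% within 500 bp of such a start. Members differed from these by 3.83 points (−2.98 to 10.6) and 1.19 points (−2.36 to 4.91), and both intervals held 0. The distal rule used deposited transcripts, so these 29 and the normal-culture-only windows at such starts are distal by the deposited transcripts only. The 29 included windows at Neat1, Myl6, Zfp963 and Znhit1. Inside a gene lay 48.4% by GENCODE M1 and 42.0% by the deposited transcripts. Of 26 such differences computed (position, CpG and copy number, complexity, and at least 2 cores), 5 left out 0. Besides the intron share, the 500 bp share and the share with at least 2 cores, these were exons of untranslated regions (1.34% of members and 4.23% of normal-culture-only windows) and distance within 5 kb of a protein-coding start (20.3% and 27.6%). The last difference lay within 0.5 kb (3.74% of members and 14.4% of normal-culture-only windows), since between 0.5 and 5 kb the shares were 16.6% and 13.2%. Of shared distal windows 1.36% lay in exons of untranslated regions and 18.8% within 5 kb of a protein-coding start. Against shared windows no interval for position left out 0.

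Members were spread over all autosomes. Chromosome 4 held the most, 35, or 23.0 per 100 Mb of known sequence, followed by chromosomes 11 and 6 with 27 each and chromosome 8 with 25. Chromosome 16 held 21 members but 5 shared distal windows, beside 19 windows of normal culture alone. None of the 374 members lay on chromosome X, and 2 shared and 3 normal-culture-only distal windows did. By their 32 bp words 12 members were multi-copy, and 13 had fewer than 70 distinct 6 bp words.

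The 374 members had 350 different nearest genes, of which 83 were also nearest to some normal-culture window and 267 to none. Of all 22238 protein-coding genes, 916 (4.12%) were nearest to any normal-culture window. The rule left out windows that overlap a normal-culture window, and the normal-culture list is cut off. The 267 genes are thus not shown to lack Runx2 nearby in normal culture. Of the 631 genes on 17 lists chosen for cartilage, inflammation and other cell types, 35 were nearest to a member (36 by the deposited transcripts), 56 to a shared distal window and 42 to a normal-culture-only distal window, and 83 to any IL-1β window. Members were nearest to 5.55% of the list genes and to 1.57% of all 22238 protein-coding genes, shared distal windows to 8.87% and 1.88%, and normal-culture-only distal windows to 6.66% and 1.54%. The lists were chosen with results known, so that these shares are a description. A nearest gene is a position and not a shown target.

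Genes of chondrocyte and Runx regulation were the list with the most members, together with collagen fibril genes. Of 48 regulators, 7 (14.6%) were nearest to 8 members, and 5 of the 7 were also nearest to a normal-culture window. Of the 48, 4 were nearest to a normal-culture-only distal window, 13 to any IL-1β window and 13 to any normal-culture window. Nfib had a window in intron 3 (rank 350) and Nfia one in intron 2 (rank 920), both encoding nuclear factor I proteins. Sox6, a partner of Sox9 in chondrocyte differentiation, had one in intron 5, 131 kb from its start (rank 379). The nearest listed normal-culture window and the nearest other IL-1β window were both 1610 kb from it. The corepressor genes Tle4 and Tle1, whose proteins Runx factors can recruit, had members as well. Those of Tle4 were at ranks 479 and 766 (213 kb downstream and 293 kb upstream of a start), neither with a core. That of Tle1 was at rank 556, with 1 core. Both genes also had shared windows, at ranks 222 and 494 for Tle4 and 43 for Tle1 in the IL-1β list. Creb5 had a window with 2 cores in intron 1 (rank 598) beside a shared window (rank 746 in IL-1β and 616 in normal culture). Nfia had a shared window as well (rank 403 in IL-1β and 633 in normal culture). Runx1, a relative of Runx2, had one in intron 2, 52.3 kb from its start, without a core (rank 945), beside its shared window in intron 5 (rank 361 in IL-1β and 160 in normal culture).

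Of 46 cartilage matrix genes, 3 (6.52%) were nearest to a member, and the best ranks among them belonged to 2 genes for enzymes of chondroitin sulfate synthesis. Chst11, a chondroitin 4-sulfotransferase gene, had a window in intron 1 (rank 290). It lay 973 kb from any listed normal-culture window and 1448 kb from any other IL-1β window. Xylt1, which encodes the xylosyltransferase that begins each chondroitin chain, had one in intron 1 (rank 302, 33.9 kb from a start) in addition to its 3 shared windows at ranks 71, 89 and 476. Matn1, a matrilin gene of cartilage, was 171 kb from its window (rank 918). Of the 46 genes, 5 were nearest to a normal-culture-only distal window, 7 to any IL-1β window and 10 to any normal-culture window.

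Collagen fibril and crosslinking genes had 7 of 40 (17.5%) nearest to 8 members, and 6 of 40 by the deposited transcripts. Of the 40, 4 were nearest to a normal-culture-only distal window, 14 to any IL-1β window and 10 to any normal-culture window. Tgfb2, a growth factor gene, had a window in intron 1, 29.0 kb from the start (rank 450), of low complexity with 69 distinct 6 bp words. Col3a1, the type III collagen gene, had a core in intron 1, 2.55 kb from the start (rank 594). The nearest listed normal-culture window was 1545 kb away and the nearest other IL-1β window 2145 kb. Col16a1 had an AP-1 motif and no Runx core in intron 42 (rank 597). The lysyl oxidase genes Loxl2 and Lox, which crosslink collagen, had members in introns 3 and 12 of Loxl2 (rank 808 with 1 core and rank 982 with 2) and 29.1 kb upstream of Lox (rank 983, no core). Plod3, a lysyl hydroxylase gene, shared its window with the start of Znhit1, 26 bp away (rank 858). Ddr2, a collagen receptor gene, had its window in intron 4 next to one of normal culture. Of these 8 members, 5 held a Runx core.

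Hypertrophy and bone genes had 4 of 36 (11.1%) nearest to a member, and 3 of the 4 were also nearest to a normal-culture window. Of the 36, 5 were nearest to a normal-culture-only distal window, 7 to any IL-1β window and 9 to any normal-culture window. Bmp6 (rank 470) and Slc20a2, a phosphate transporter gene (rank 759), were both in neighbouring pairs, without a core in the IL-1β window. Bhlhe40, a clock and differentiation factor gene, had a member 7.68 kb downstream of a start (rank 602) and a shared window at rank 811. Tnfsf11, which encodes the osteoclast factor RANKL, had one 76.6 kb upstream with 1 core (rank 996).

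Signalling lists had 1 gene each. These were Smo, the Hedgehog transducer (intron 1, 1 core, rank 440, also 69 distinct words), Nog, a BMP antagonist gene (95.6 kb, no core, rank 820), and Igf1 (65.8 kb upstream, 1 core, rank 558). The Smo list of Wnt, Hedgehog, FGF and Notch genes had 1 of 68 nearest to a member and 10 of 68 nearest to a normal-culture-only distal window. Focal adhesion and actin genes had 5 of 56. Tns3 had 2 members upstream (45.2 kb, rank 162, and 10.3 kb, rank 734) beside its shared windows at ranks 276 and 515. Palld (rank 565), Tns1 (609), Myh9 (712) and Tiam2 (800) were nearest to 1 member each. The Tns1 window was intergenic, 383 kb from a start of the gene, and the deposited transcripts gave it to Tnp1. Of the 5, 3 were also nearest to a normal-culture window. Of the 56, 4 were nearest to a normal-culture-only distal window, 12 to any IL-1β window and 14 to any normal-culture window. Of the apoptosis and cell cycle list, Stk4 and Myc were nearest, the oncogene Myc by members 341 kb (rank 550, no core) and 347 kb (rank 711, 1 core) from its start. Both genes were also nearest to a normal-culture window. Of the 40 genes on this list, 5 were nearest to a normal-culture-only distal window.

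Of 72 inflammatory genes downstream of IL-1 and NF-κB, 1 (1.39%) was nearest to a member, near the 1.57% of all protein-coding genes. It was the chemokine gene Cxcl12 (8.26 kb upstream, rank 922), while 5 were nearest to any IL-1β window and 7 to any normal-culture window. Of 27 AP-1 and C/EBP genes it was Cebpb (88.6 kb, rank 570). Neither window held a Runx, AP-1 or NF-κB motif. Of 51 protease, inhibitor and hyaluronan genes it was the urokinase receptor gene Plaur (4.62 kb upstream, 1 core, rank 995). Among markers of other cell types, the endothelial Emcn was nearest to a member (73.2 kb, rank 769), and 0 of 17 muscle, 0 of 21 macrophage and leukocyte, 0 of 9 adipocyte and 0 of 15 fibroblast and synovium markers were. By the deposited transcripts Cdh11 (rank 586) and Fn1 (889) were among those also named.

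**Figure D5:**
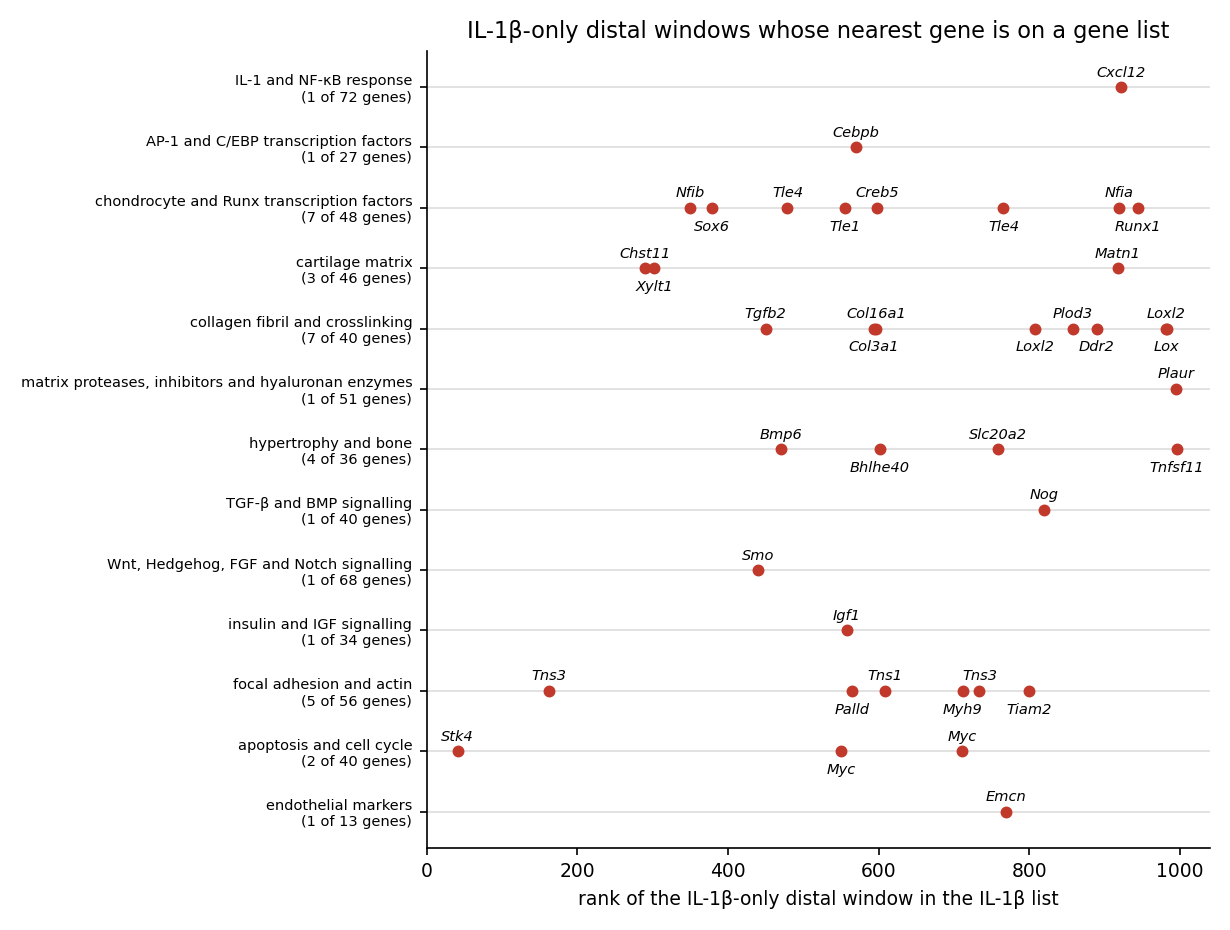
Rank in the IL-1β list (horizontal axis) of each IL-1β-only distal window whose nearest GENCODE M1 gene is on a list, by list (vertical axis, with the number of its genes found). Regulators and collagen fibril genes have 7 genes each, and the IL-1 list has 1 of 72, Cxcl12 at rank 922.

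Among 21 genes nearest to more than 1 member, Gm20388 had 4 and Mrpl33 3. Gm20388 is a long predicted model of GENCODE M1, and its 4 windows (ranks 275, 518, 902 and 1000) were given to Rhou, Zcchc14, Gse1 and Foxl1 by the deposited transcripts. The 3 Mrpl33 windows (ranks 407, 791 and 845) lay within 20.2 kb of a start of this mitochondrial ribosomal gene, and that of rank 407 was multi-copy and of low complexity. The others had 2 members each, as Zmiz1, a transcriptional coactivator gene (ranks 413 and 905), Hivep3, a zinc finger gene with a part in bone formation (719 and 891), Glis1, a zinc finger gene (651 and 803), the ETS factor gene Elk3 (757 and 867), the retinal reductase gene Dhrs3 (638 and 860) and the chromatin remodeller gene Chd2 (460 and 873). At Arhgef10 (608 and 976) and Polr1a (601 and 752) both members lay within 1000 bp of each other. Besides Loxl2, Myc, Tle4 and Tns3, the rest were Ssbp3, Tprg, Copz2, Setd4, Eif3h, Cuedc1 and Tut7. Copz2 had 1 of its 2 windows (rank 859) in sequence whose words had a median of 2013 genome copies.

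Dusp1 and Gja1 had members close to their starts, named after their values were seen. Dusp1, a MAP kinase phosphatase gene induced early by many stimuli, had one 1.12 kb upstream with 1 core (rank 249), and the gap junction gene Gja1 had one in intron 1, 0.79 kb from the start, with 1 core (rank 248). The nearest listed normal-culture windows were 377 and 404 kb away, against a median of 374 kb over all members.

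The 8 windows of the chromosome 9 stretch had ranks from 25 to 906, and 7 of them were multi-copy, with a median of 15.5 genome copies over the 8. None of the 8 held a Runx, AP-1 or NF-κB motif, and their median GC content was 33.0%, against 51.0% in the other members. Their nearest GENCODE M1 genes were predicted models such as Gm11168, while the deposited list gave them to Alkbh8.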

How the data were processed

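Chromatin immunoprecipitation sequencing had been done with anti-FLAG antibody, IgG and input DNA in IL-1β and in normal culture, 1 library each. Alignment was to mm9, and Bowtie2 2.2.2 is named in the processing notes of the submitters. Peak calling by the authors used CisGenome, anti-FLAG over input of the same condition, and they deposited for each condition a list of 1000 windows of 100 bp with the nearest RefSeq transcript. The deposited lists hold a running number, read here as the rank, and no score, read count or signal, so depth is unknown, and the 2 IgG libraries were not used. Chromosome X, written as a number in the transcript columns, was read as X.

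Windows were compared by overlap of 1 bp, placed on GENCODE M1 protein-coding genes, and searched for 15 motifs in mm9. A window was multi-copy by the genome count of its 32 bp words, and of low complexity with fewer than 70 distinct 6 bp words. Shares carry 95% Wilson intervals and differences Newcombe intervals, which cover counting error only. With 1 library per condition no p-value was computed. The members, gene lists and motifs were chosen with earlier results of these data known. Genes named are those of the 10 best ranks, up to 4 best-ranked members per list, genes nearest to at least 2 members and windows at the edges of the rule. Further list members were named to complete a list, and other genes where the text says so. Alternatives changed the overlap, the starts, the ranks used, the motif, the width searched and repeated sequence. The procedures were tested on simulated data. Python 3.11.15, numpy 2.4.6, pandas 2.3.3, statsmodels 0.14.6, numba 0.67.0 and matplotlib 3.10.9 were used.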

Additional observations from a re-analysis of the deposited data

How the results depend on the processing

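Of 38 alternatives, 28 kept the direction and the side of 0, or stayed within 1.5 times of a count or within the interval of a share. The 382 windows became 106 with ranks 1 to 500 alone, and between 329 and 447 under the other rules for overlap and starts. The share with a Runx core, 58.0%, was 70.1% with the broader consensus, 77.0% with windows widened by 100 bp on each side and 65.3% in ranks 1 to 500. Its difference from shared distal windows, −9.63 points, was −6.00 (−15.8 to 4.16) in ranks past 500 and −6.34 (−13.1 to 0.43) without members within 1000 bp of a normal-culture centre. The NF-κB difference, 0.36 points, was −0.043 with multi-copy windows left out, and both intervals held 0. The SOX difference, 3.77 points, was 2.54 (−3.75 to 8.78) in widened windows, and the intron difference, 8.84 points, was 6.60 (−1.11 to 14.2) without windows within 500 bp of a GENCODE M1 start. The share inside genes was 42.0% by deposited transcripts. The differences without neighbours of the other list, all values without low-complexity windows, the intron difference without GENCODE M1 starts and the alternatives for SOX were chosen after seeing the data, and the cause of these changes was not tested. The conditions could not be paired because each has 1 library, and the pairing of members with their own flanks was not used. The results come from no test. Without read counts, windows below rank 1000 cannot be told from unbound sequence.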
